A study of Mus musculus with 7 samples.

Results

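5C-Oct4GFP- cells, which had not switched on the Oct4GFP reporter at the end of reprogramming, were compared with 5C-Oct4GFP+ (primed) cells, which had switched it on and were then converted to the primed state of pluripotency. According to the study, the latter cells no longer showed GFP fluorescence after culture in primed medium. The members are these 2 libraries of the 7 in the series, and each gene was compared between them. Both came from OG2 mouse embryonic fibroblasts, which carry an egfp transgene driven by an Oct4 promoter without its proximal enhancer, and both were made by retroviral Oct4, Sox2, Klf4 and c-Myc. 5C-Oct4GFP- cells (passages 0) were sorted by FACS from cultures in 5C medium, a serum-free medium with bFGF, LIF and vitamin C. 5C-Oct4GFP+ (primed) cells carry passages 20 in the labels. The study describes a few days in primed medium, after which the cells were kept for 20 more passages. Primed medium contains bFGF and activin A at induction and the Wnt-pathway drugs CHIR99021 and IWR-1 during maintenance. Time in culture, medium, passage and cell state therefore differ together and cannot be told apart. The other libraries were 5C-Oct4GFP+ cells (passages 0), the same cells converted in naive medium (passages 20), Oct4GFP+ and Oct4GFP- cells from cultures in mES medium (passages 0, OG2), and R1 ESCs-primed (passages 20), an embryonic stem cell line of another origin whose primed state was induced on fibroblast feeder cells.

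Pluripotent cells exist in a naive state, as in the early epiblast, and in a primed state, as in the epiblast shortly before gastrulation. Primed cells depend on FGF and activin or Nodal, lose naive genes and begin to express genes of the primitive streak. A mesenchymal cell holds vimentin, N-cadherin and fibrillar matrix, whereas an epithelial cell holds E-cadherin, claudins and keratins. Reprogramming fibroblasts lose the mesenchymal programme on the way to pluripotency, and primed cells express part of it. The comparison asks how Oct4GFP- cells differ from primed cells although both express mesenchymal genes.

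The expected counts summed to 8346747 in 5C-Oct4GFP- and 11496615 in 5C-Oct4GFP+ (primed), and to between 6108252 and 11496615 over the 7 libraries. One read was worth a median of 0.0920 TPM in the former and 0.0638 TPM in the latter library. There was 1 library per condition, so that no spread between cultures could be estimated, no test was made, and the 95% intervals given for ratios cover counting error only. A level is in TPM, a transcript abundance scaled per length to the same total in every library. A difference is the log2(TPM + 1) of 5C-Oct4GFP- minus that of 5C-Oct4GFP+ (primed), a scale that understates the change of low genes, and 2-fold means a difference of at least 1 in size. In bulk RNA, fewer cells of a type and less RNA per cell cannot be told apart.

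The 2 libraries were checked against marker lists. The 9 markers of pluripotent cells summed to 2693 TPM in 5C-Oct4GFP- against 4193 TPM in 5C-Oct4GFP+ (primed), and the 8 primed markers to 159 and 910 TPM. The 10 markers of fibroblasts, which also mark feeder cells, summed to 281 TPM in 5C-Oct4GFP- against 81.3 TPM in 5C-Oct4GFP+ (primed), against 596 TPM in mES-Oct4GFP-, 236 TPM in R1 ESCs-primed and 11.1 TPM in 5C-Oct4GFP+ cells. Of these fibroblast markers, 8 and 5 reached 5 TPM in the former pair and none was at 0. Macrophage markers summed to 20.4 and 11.2 TPM, with Lyz2, C1qa, C1qb, Csf1r and Tyrobp at 0 in both libraries, and muscle markers to 7.47 and 7.17 TPM, with Myod1, Myog and Ckm at 0 in both. Keratinocyte markers summed to 91.6 and 1.32 TPM, and endothelial markers to 43.9 and 2.0 TPM, of which Tek alone gave 40.4 TPM in 5C-Oct4GFP-. The part of other cell types in the differences was not tested.

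A level of 5 TPM or more in one or both of the libraries was reached by 12073 genes, which are said to enter. Of these, 2511 (20.8%) exceeded their primed level by 2-fold or more in 5C-Oct4GFP-, and 812 (6.73%) were 2-fold or more higher in 5C-Oct4GFP+ (primed). The counts given below for gene lists are to be read against these shares. Of the 12073, 1595 reached 5 TPM in 5C-Oct4GFP- only and 539 in 5C-Oct4GFP+ (primed) only, and the direction of such genes is largely set by the filter. The 8750 genes that were not 2-fold apart made up 72.5%, and 8286 of them had at least 5 TPM in both libraries. The asymmetry was greater among large differences, with 494 genes at least 8-fold higher in 5C-Oct4GFP- and 58 in 5C-Oct4GFP+ (primed). The ratio's interval lay off 1 for 2504 of the 2511 and 804 of the 812 genes. In 5C-Oct4GFP+ (primed), 100 of the 2511 genes had no read, whereas 15 of the 812 had none in 5C-Oct4GFP-. The median difference over the 12073 genes was 0.16. When the libraries were scaled to equal medians, which moved this median by -0.13, 69.4% instead of 75.6% of the 2-fold genes were higher in 5C-Oct4GFP-.

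**Figure D1:**
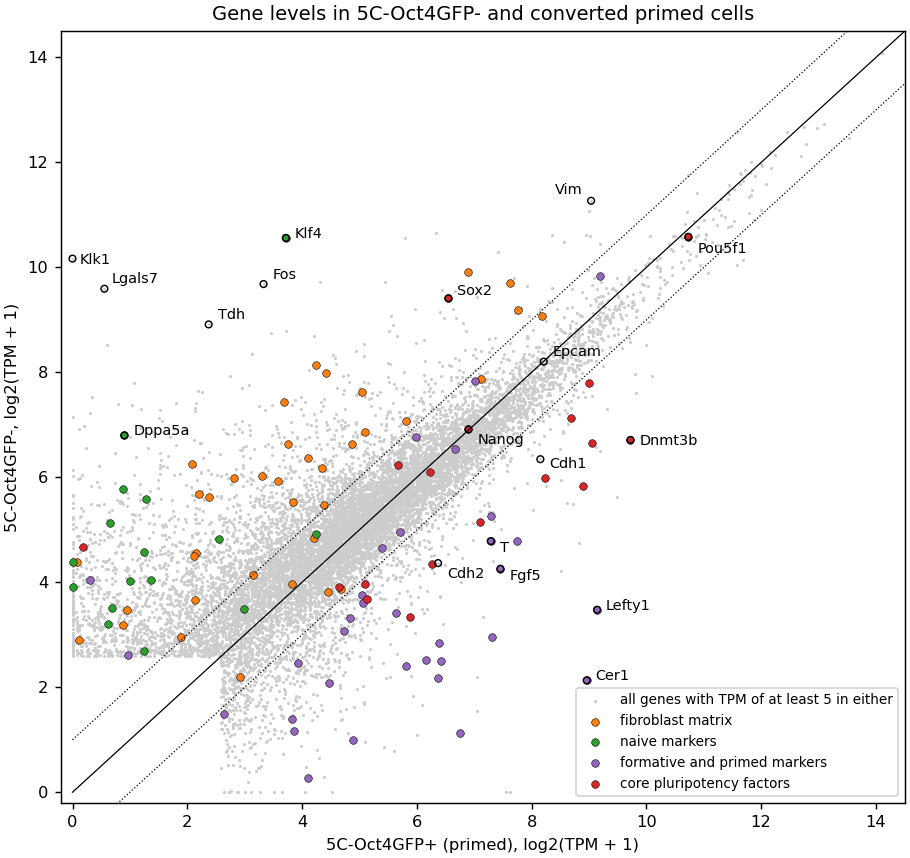
Level of each of 12073 genes in 5C-Oct4GFP+ (primed) (x axis) and 5C-Oct4GFP- (y axis), both as log2(TPM + 1), with 1 library each; the solid line marks equal levels and the dotted lines 2-fold. Most naive markers (14 of 16) and most fibroblast matrix genes (29 of 37) sit above the lines, most formative and primed markers sit below them, and Pou5f1, Nanog and Epcam lie near the solid line.

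The largest difference on the side of 5C-Oct4GFP- was that of Klk1. Klk1 (ENSMUSG00000063903, GRCm38 chr7:44225360-44229618), a tissue kallikrein, was at 1149 TPM in 5C-Oct4GFP- and had no read in 5C-Oct4GFP+ (primed). Taking 3 counts (0.594 TPM) as the floor of that library, it was at least 1934-fold higher. Klk1 was also at 852 TPM in mES-Oct4GFP- and 717 TPM in 5C-Oct4GFP+ cells, at 13.1 and 11.9 TPM in mES-Oct4GFP+ and 5C-Oct4GFP+ (naive) cells, and at 0 in R1 ESCs-primed, so that both primed libraries lacked it. Lgals7, a galectin of stratified epithelia, was at 772 TPM against 0.470 TPM (2 reads), a ratio of 1642 with an interval of 457 to 13652. Clec3b, which encodes tetranectin, was at 365 against 0.520 TPM, and Foxd1, a forkhead factor of stromal cells, at 184 against 0.270 TPM. Sprr2b, a cornified envelope protein, was at 141 TPM against no read, at least 211-fold. Fcgr2b, an Fc receptor, was at 148 against 0.230 TPM, Msln, the mesothelial surface protein mesothelin, at 120 against 0.0800 TPM, and Ceacam1, an adhesion molecule, at 222 against 1.09 TPM. All 8 genes were lower in 5C-Oct4GFP+ than in 5C-Oct4GFP- cells, and those other than Klk1 were at 21.1 to 74.2 TPM there.

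Immediate early genes also stood among them. Fos, a subunit of the AP-1 transcription factor, was at 821 TPM in 5C-Oct4GFP- against 9.05 TPM in 5C-Oct4GFP+ (primed), a ratio of 90.7 (75.2 to 110). Fosb, its relative, was at 165 against 1.04 TPM. Both were high in mES-Oct4GFP- (815 and 344 TPM), intermediate in 5C-Oct4GFP+ (228 and 30.2 TPM) and below 10 TPM in the other 4 libraries. Fos was at 1.33 TPM in mES-Oct4GFP+ cells. The part of sorting and handling in these levels was not tested. The remaining genes among the 15 highest were Klf4 and Tdh, described with the pluripotency genes, Nat8f3 (125 against 0.150 TPM), Urah (168 against 0.740 TPM) and Fndc1 (93.6 against 0.170 TPM).

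Among the 15 largest differences on the side of 5C-Oct4GFP+ (primed), 8 belonged to the following regulators of the gastrulating embryo. Cer1 (ENSMUSG00000038192, GRCm38 chr4:82881751-82885148), a secreted inhibitor of Nodal, BMP and Wnt, was at 497 TPM against 3.38 TPM in 5C-Oct4GFP-, a ratio of 147 (98.7 to 230). Lefty1, a secreted Nodal inhibitor, was at 564 against 10.1 TPM, or 55.6-fold (43.7 to 71.8). The homeobox gene of the organizer, Gsc, was at 107 against 1.18 TPM, and Lhx1, a LIM homeobox gene of the same region, at 131 against 1.93 TPM. Cfc1, a co-receptor for Nodal, was at 47.7 against 0.730 TPM, and Fgf8, an FGF ligand of the streak, at 157 against 6.74 TPM. Eomes, a T-box factor of the streak, was at 81.2 against 3.54 TPM, and Sox17, an endoderm factor, at 60.4 against 2.57 TPM. All of these were also higher in R1 ESCs-primed than in 5C-Oct4GFP-, with Cer1 at 178 TPM, Lefty1 at 715 TPM, Gsc at 92.5 TPM and Sox17 at 35.3 TPM there. In 5C-Oct4GFP+ cells before conversion Cer1 was at 0, Gsc at 0.730 TPM and Sox17 at 0.590 TPM, whereas Lefty1 was at 27.1 TPM and Eomes at 7.49 TPM, above their levels in 5C-Oct4GFP-.

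Other genes among the 15 were Cyp26a1, which degrades retinoic acid (132 against 3.58 TPM), Lgr5, a receptor for R-spondins (33.1 against 0.930 TPM), Flt1, a VEGF receptor (66.8 against 2.17 TPM), and Amot, an angiomotin of the Hippo pathway (364 against 17.6 TPM). Foxq1 (42.0 against 0.820 TPM) and Klhl4 (63.1 against 1.14 TPM) were also among them. Pgk1-rs7 was listed at 188 TPM against no read, but it is a near copy of Pgk1 and its reads could have been divided between the copies, so its value is uncertain.

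Among transcription factors of the epithelial-mesenchymal transition (EMT), 5 of the 11 that entered (45.5%) were 2-fold or more higher in 5C-Oct4GFP- and 1 (9.09%) in 5C-Oct4GFP+ (primed). The shares over all genes were 20.8% and 6.73%. Of the 11, 4 entered only through 5C-Oct4GFP- and 1 only through 5C-Oct4GFP+ (primed). The median difference was 0.88 against 0.16 over all genes. Zeb1, a repressor of Cdh1, was at 21.7 TPM in 5C-Oct4GFP- against 3.65 TPM in 5C-Oct4GFP+ (primed), a ratio of 5.94 (4.81 to 7.40). Its relative Zeb2 was at 19.5 against 3.84 TPM, and Prrx1, a homeobox factor of limb mesenchyme and fibroblasts, at 18.4 against 2.95 TPM. Snai1, Snai2, Twist1 and Twist2 were less far apart than these. Snai1 was at 13.5 and 6.88 TPM, Twist1 at 14 and 7.73 TPM, and Snai2 at 2.99 and 1.87 TPM, all within 2-fold, and Twist2 was below 2 TPM in both libraries. Snai2 and Twist2 were thus too low to enter. Snai3 was the member higher in the primed cells, at 11.9 against 2.47 TPM. Tead2, a partner of YAP (374 against 290 TPM), and Hmga2, a chromatin protein of embryonic mesenchyme (99.5 against 51.8 TPM), were abundant in both.

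Fibroblast matrix genes marked the difference in mesenchymal character. Of 37 that entered, 29 (78.4%) were 2-fold or more higher in 5C-Oct4GFP- and none in 5C-Oct4GFP+ (primed), against 20.8% and 6.73% of all genes. The median difference was 2.27. Of the 37, 11 entered only through 5C-Oct4GFP- and 1 only through 5C-Oct4GFP+ (primed). The filter largely set the direction of those genes, whereas the others reached 5 TPM in both libraries. Col5a2, a chain of fibrillar collagen V, was at 75.4 TPM against 3.23 TPM, a ratio of 23.4 (19.6 to 28.0). Col5a1, another chain of collagen V, went the other way, at 13.0 TPM or 61.9% of its primed level. Vcan (55.7% of its primed level) and Has2 (55.2%) were the other genes lower in 5C-Oct4GFP-, which makes 3 of the 37. Eln, which encodes elastin, was at 19.8 TPM against 0.0600 TPM. Fn1, fibronectin, was at 831 TPM against 196 TPM, or 4.25-fold (4.13 to 4.36), and Thy1, a surface protein of fibroblasts, at 53.3 against 8.80 TPM. The chains of collagen I were less far apart, with Col1a1 at 45.0 against 13.3 TPM (3.38-fold, 3.03 to 3.76) and Col1a2 at 43.4 against 19.9 TPM (2.18-fold, 1.97 to 2.42). Serpinh1, the collagen chaperone (541 and 289 TPM), and Serpine2, a protease inhibitor (233 and 139 TPM), were abundant in both libraries and within 2-fold.

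Of the 37 fibroblast matrix genes, 27 were higher in 5C-Oct4GFP+ (primed) than in 5C-Oct4GFP+ cells, from which they were derived, and 10 were not. Fn1 (196 against 523 TPM) and Col5a2 (3.23 against 13.8 TPM) were among the 10. Col1a1 was at 160 TPM in mES-Oct4GFP-, followed by 5C-Oct4GFP- (45.0 TPM), R1 ESCs-primed (40.5 TPM) and 5C-Oct4GFP+ (primed) (13.3 TPM), and was at 1.5 to 4.05 TPM in the 3 other libraries. Zeb2 was at 11.3 and 19.5 TPM in the 2 Oct4GFP- libraries, at 7.68 and 3.84 TPM in the 2 primed libraries and at 0 to 0.620 TPM in the others. The mean log2(TPM + 1) of the fibroblast matrix genes was 5.83 in 5C-Oct4GFP-, 6.16 in mES-Oct4GFP-, 4.72 in R1 ESCs-primed, 3.81 in 5C-Oct4GFP+ (primed), 3.07 in 5C-Oct4GFP+ and 2.51 to 2.52 in the other two. Fibroblast-marker sums followed this order in the Oct4GFP- and primed libraries. They were lowest in 5C-Oct4GFP+ (11.1 TPM), below mES-Oct4GFP+ (14.3 TPM) and 5C-Oct4GFP+ (naive) (15.8 TPM). The markers Col1a1, Col1a2, Col3a1, Lum, Dcn and Postn also belong to the matrix list, so the sums are no independent measure. The feeder cells on which the R1 primed state was induced were not measured.

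Adhesion and cytoskeleton genes of mesenchymal cells split in both directions. Of 24 that entered, 13 were 2-fold or more higher in 5C-Oct4GFP- and 4 in 5C-Oct4GFP+ (primed), with a median difference of 1.09. Vim, the intermediate filament vimentin, was at 2468 TPM in 5C-Oct4GFP- against 524 TPM in 5C-Oct4GFP+ (primed), a ratio of 4.71 (4.55 to 4.87). Cavin1, a coat protein of caveolae, was at 262 against 16.4 TPM, and S100a4, also called fibroblast-specific protein, at 115 against 6.74 TPM. Cdh2, N-cadherin, went the other way, at 19.6 TPM in 5C-Oct4GFP- against 81.7 TPM in 5C-Oct4GFP+ (primed), or 4.17-fold higher in the latter (3.72 to 4.68). Cdh2 was at 93.1 TPM in R1 ESCs-primed, 42.4 TPM in mES-Oct4GFP- and 1.65 to 5.38 TPM in the remaining libraries. Tpm2, a tropomyosin, was at 24.5 against 101 TPM.

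Across the 4 mesenchymal lists (EMT factors, adhesion and cytoskeleton, fibroblast matrix and the study's own mesenchymal markers), 92 different genes entered, of which 57 were 2-fold or more higher in 5C-Oct4GFP- (62.0%), 7 in 5C-Oct4GFP+ (primed) and 28 within 2-fold (30.4%). Of the 28, 9 had at least 50 TPM in both libraries. These shared genes were Serpinh1, Serpine2, Tead2 and Hmga2, given above, the actin-binding proteins Flna (479 and 622 TPM), Tpm1 (361 and 529 TPM), Actn1 (92.2 and 149 TPM) and Cald1 (159 and 79.4 TPM), and the FGF receptor Fgfr1 (149 and 101 TPM). Of the 9 abundant genes in common, 4 bind actin filaments, and the share of such genes among the 92 was not counted. No fibrillar collagen was among the 9. For Col1a1 (45.0 TPM), Col1a2 (43.4 TPM) and Col5a1 (13.0 TPM in 5C-Oct4GFP-, as for the others) the limit of 50 TPM fixed this. Of the study's own list, 47 mesenchymal markers were readable, 42 entered and 25 were higher in 5C-Oct4GFP- against 3 in 5C-Oct4GFP+ (primed). Of the 42, 11 entered only through 5C-Oct4GFP- and 2 only through 5C-Oct4GFP+ (primed). The study chose that list, and its direction is no independent evidence. Ccn2, a matricellular growth factor regulator, was at 283 against 17.8 TPM, and Cdkn2c, a cyclin kinase inhibitor, at 20.2 against 0.510 TPM. Igfbp3, which binds insulin-like growth factors, was at 58.4 against 240 TPM.

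**Figure D2:**
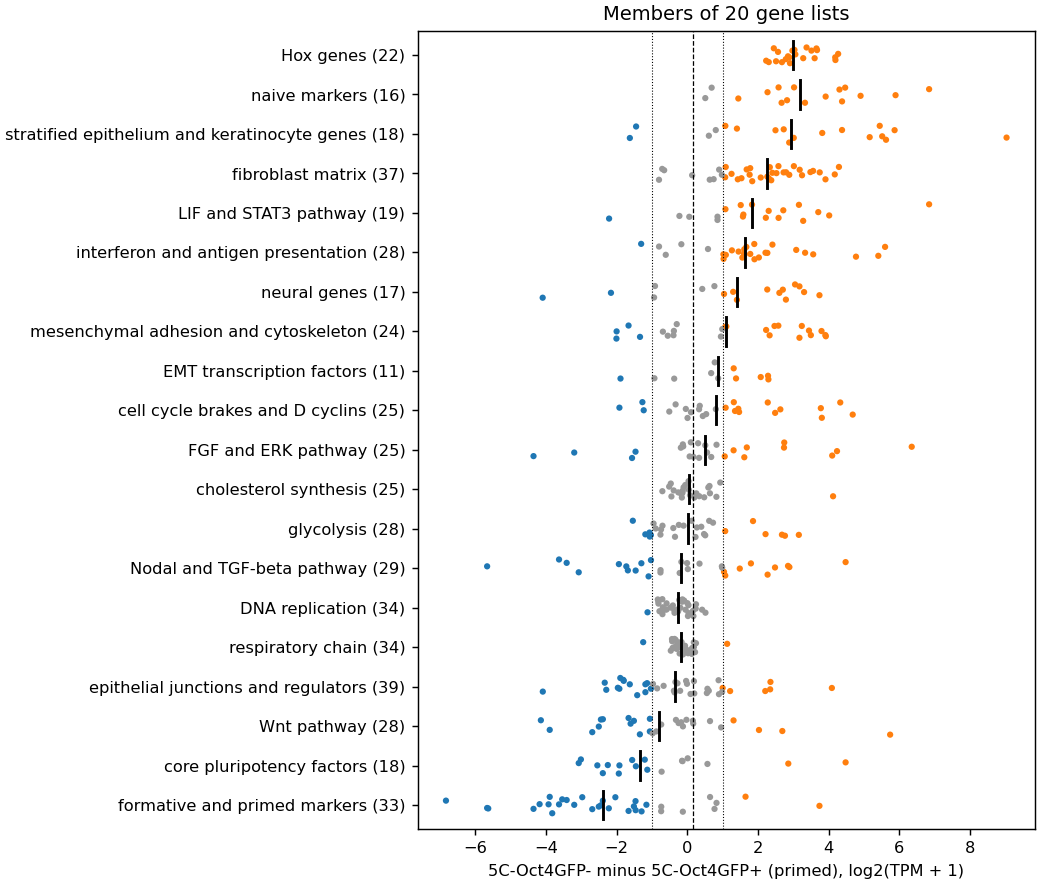
Difference of each member of 20 gene lists (5C-Oct4GFP- minus 5C-Oct4GFP+ (primed), log2(TPM + 1)), with the number of members that entered in parentheses; orange points are at least 2-fold higher in 5C-Oct4GFP-, blue points at least 2-fold higher in 5C-Oct4GFP+ (primed), black bars are list medians, the dashed line is the median of all genes and the dotted lines are 2-fold. Of the formative and primed markers 25 of 33 lie left of the lower dotted line, while the 22 Hox genes lie on the right, a side that the filter on low values fixed for them.

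Epithelial genes fell into separate groups. Of 39 genes of epithelial junctions and their regulators, 6 were 2-fold or more higher in 5C-Oct4GFP- and 14 in 5C-Oct4GFP+ (primed), with a median difference of -0.33. Cdh1, E-cadherin, was at 80.3 TPM in 5C-Oct4GFP- against 284 TPM in 5C-Oct4GFP+ (primed), or 3.53-fold higher in the primed cells (3.34 to 3.73). Cldn6, a claudin of embryonic epithelia, was at 25.8 against 456 TPM, 17.6-fold (15 to 20.8), and Pkp2, a desmosomal plakophilin, at 13.3 against 71.0 TPM. Esrp1, an epithelial splicing regulator, was at 27.2 against 86.0 TPM. Epcam, an epithelial adhesion molecule that pluripotent cells also express, was equal, at 294 and 295 TPM, with a ratio of 0.995 (0.945 to 1.05). Cldn4, another claudin, was higher in 5C-Oct4GFP-, at 70.2 against 12.9 TPM.

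Genes of stratified epithelia stood on the other side. Of 32 genes, 16 reached 5 TPM in 5C-Oct4GFP- and 5 in 5C-Oct4GFP+ (primed). Of the 18 that entered, 13 did so only through 5C-Oct4GFP-, and 14 were 2-fold or more higher in 5C-Oct4GFP- and 2 in 5C-Oct4GFP+ (primed), with a median difference of 2.95. Beside Lgals7, Pkp1, a plakophilin of stratified epithelium, was at 61.5 against 0.0700 TPM, and among the study's own epithelial markers the keratin Krt17 was at 139 against 1.83 TPM, a ratio of 75.8 (47.1 to 131). The defining keratinocyte markers were mostly low in 5C-Oct4GFP-, where 2 of 6 reached 5 TPM and Krt15 and Ivl were at 0. Sfn (110 and 62.3 TPM) and Perp (104 and 68.0 TPM) were within 2-fold. Cdh1 and Krt17 thus went in opposite directions, and of the study's 28 epithelial markers that entered 10 were higher in 5C-Oct4GFP- and 9 in 5C-Oct4GFP+ (primed).

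Core pluripotency factors were mostly lower in 5C-Oct4GFP-. Of 18 that entered, 11 were 2-fold or more higher in 5C-Oct4GFP+ (primed) and 2 in 5C-Oct4GFP-, with a median difference of -1.33. Dnmt3b, a de novo DNA methyltransferase, was at 104 TPM in 5C-Oct4GFP- against 844 TPM in 5C-Oct4GFP+ (primed), or 8.12-fold higher in the latter (7.73 to 8.53). Tdgf1, a Nodal co-receptor, was at 55.8 against 476 TPM, and Lin28a, an RNA-binding protein that blocks let-7, at 62.3 against 299 TPM. Nanog was at 120 and 118 TPM, a ratio of 1.01 (0.934 to 1.09), and was at 131 TPM in R1 ESCs-primed, 253 TPM in 5C-Oct4GFP+ against 17.1 TPM in mES-Oct4GFP-. Gdf3, a TGF-beta family ligand of naive cells, was at 24.5 TPM against 0.140 TPM.

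The 4 reprogramming factors need separate reading, since reads from the retroviral copies are counted with the endogenous genes. Pou5f1 (Oct4) was at 1534 TPM in 5C-Oct4GFP- against 1698 TPM in 5C-Oct4GFP+ (primed). The former cells were sorted as negative for the reporter, and the study reports that the latter had lost its fluorescence. Sox2 was at 680 against 92.8 TPM, Klf4 at 1512 against 12.2 TPM and Myc at 1622 against 79.7 TPM. In mES-Oct4GFP- the 4 genes were also high, at 3640 TPM for Pou5f1, 498 TPM for Sox2, 1613 TPM for Klf4 and 1884 TPM for Myc. The share of viral transcripts in these levels was not tested.

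Of 21 naive markers, 16 reached 5 TPM in 5C-Oct4GFP- and 3 in 5C-Oct4GFP+ (primed). Of the 16 that entered, 13 did so only through 5C-Oct4GFP-, and 14 were 2-fold or more higher in 5C-Oct4GFP- and none in 5C-Oct4GFP+ (primed), with a median difference of 3.18. Dppa5a, an RNA-binding protein of naive cells, was at 110 TPM against 0.870 TPM (3 reads), a ratio of 127 (42.7 to 616). Tdh, threonine dehydrogenase, on which mouse ESCs depend, was at 481 against 4.18 TPM, or 115-fold (82.2 to 167). Klf5 (29.4 and 17.9 TPM) and Fgf4 (10.3 and 6.93 TPM) were within 2-fold. The levels in 5C-Oct4GFP- were nevertheless low against those of the cells that had switched the reporter on. They were a median of 16.8% of the level in 5C-Oct4GFP+ cells (lowest 2.34%, highest 290%, the highest being Klf4). Dppa5a was at 4714 TPM in 5C-Oct4GFP+ cells and at 3631 to 3754 TPM in the naive and mES-Oct4GFP+ cells. Tdh was at 640 to 725 TPM in these 3 libraries, so that its level in 5C-Oct4GFP- was closer to theirs than that of Dppa5a.

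Formative and primed markers were the group furthest on the side of the primed cells, with 25 of 33 at least 2-fold higher in 5C-Oct4GFP+ (primed), 2 in 5C-Oct4GFP- and a median difference of -2.39. Of the 33, 13 entered only through 5C-Oct4GFP+ (primed). Fgf5, the classical primed marker, was at 18.1 TPM in 5C-Oct4GFP- against 175 TPM in 5C-Oct4GFP+ (primed), or 9.63-fold higher in the latter (8.30 to 11.2). Otx2, a homeobox factor of formative cells, was at 26.5 against 214 TPM, and T, brachyury, at 26.6 against 155 TPM. In the median gene of this list, 5C-Oct4GFP- had 17.1% of the level in 5C-Oct4GFP+ (primed). T was at 0.240 TPM in 5C-Oct4GFP+ cells, so that its level in 5C-Oct4GFP- exceeded that of the reporter-positive fraction, whereas Otx2 was at 189 TPM there. Sox1, an early neural factor, and Nkx1-2, a homeobox gene of the posterior epiblast, were the 2 exceptions, at 15.5 against 0.230 TPM and 5.12 against 0.95 TPM. Igfbp2 (918 and 586 TPM) and Etv5 (228 and 128 TPM) were within 2-fold.

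**Figure D3:**
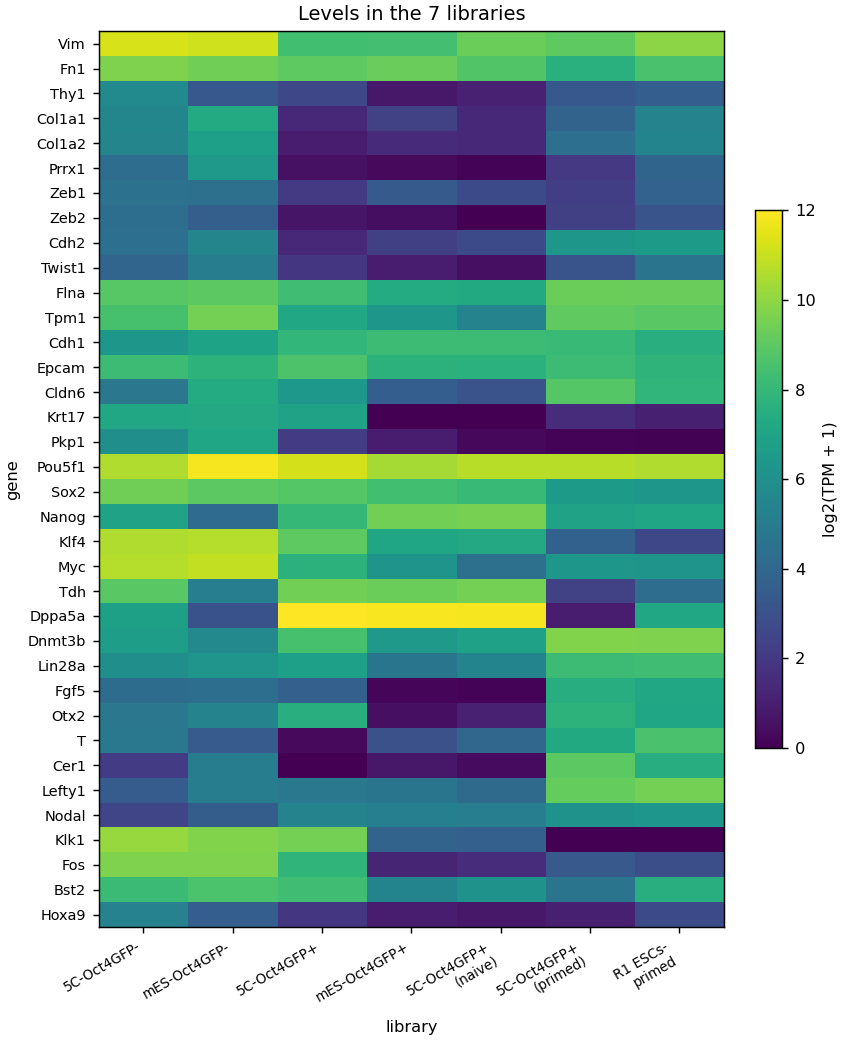
Levels of 36 genes (rows) in each of the 7 libraries (columns) as log2(TPM + 1), with 1 library per column and lighter colour for higher levels. Vim and Fos are brightest in the 2 Oct4GFP- libraries, Dppa5a and Tdh in the Oct4GFP+ and naive libraries, and Cer1, Lefty1, Fgf5 and T in the 2 primed libraries.

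Genes of the LIF pathway were one-sided. LIF signals through JAK kinases and STAT3 and is a component of 5C medium. Of 19 genes of this pathway that entered, 14 were 2-fold or more higher in 5C-Oct4GFP- and 1 in 5C-Oct4GFP+ (primed), with a median difference of 1.83 (Klf4 is one of the 14). Of the 19, 5 entered only through 5C-Oct4GFP-. The part of LIF in these differences was not tested. Bcl3, an IkB-family target of STAT3, was at 30.3 against 0.930 TPM. Pim2, a survival kinase, was the exception, at 193 against 898 TPM. Jak1 (52.5 and 28.5 TPM) and Socs2 (110 and 129 TPM) were within 2-fold. The palindrome TTCNNNGAA, which STAT proteins bind, lay in the 250 bases before the RefSeq start site of 1 of the 14 genes (7.14%) and of 7.02% of 32851 promoters. A gene counted when any of its promoters matched, whereas the latter share is per promoter.

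Nodal and TGF-beta genes lay on both sides. Of 29 that entered, 9 were 2-fold or more higher in 5C-Oct4GFP- and 11 in 5C-Oct4GFP+ (primed), with a median difference of -0.17. The ligand Nodal was at 4.75 against 70.1 TPM, 14.8-fold higher in the primed cells (10.8 to 20.7), with its inhibitor Lefty1 given above. Another ligand of the family, Gdf3, given above, and the TGF-beta receptor Tgfbr2 were higher in 5C-Oct4GFP-. Tgfbr2 was at 59.9 against 7.21 TPM. The shared mediator Smad4 was at 94.1 and 106 TPM, and the BMP target Id3 at 228 and 114 TPM, both within 2-fold.

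Wnt genes were more often higher in the primed cells, with 12 of 28 at least 2-fold higher there, 4 higher in 5C-Oct4GFP- and a median difference of -0.81. Dkk1, a Wnt inhibitor, was at 1.00 against 28.7 TPM, whereas Notum, an enzyme that inactivates Wnt ligands, was at 154 against 1.89 TPM and Dkk3 at 12.6 against 1.11 TPM. Ctnnb1, beta-catenin, was at 608 and 618 TPM. FGF and ERK genes had a median difference of 0.51, with 9 of 25 (36%) at least 2-fold higher in 5C-Oct4GFP- and 4 (16%) in 5C-Oct4GFP+ (primed). The shares over all genes were 20.8% and 6.73%. The receptor Fgfr3 was at 38.3 against 1.08 TPM, the ligand Fgf8 was on the other side, and the ERK phosphatase Dusp6 was at 119 and 135 TPM.

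Genes of the interferon response and antigen presentation formed one of the most one-sided groups. Of 28 that entered, 23 (82.1%) were 2-fold or more higher in 5C-Oct4GFP- and 1 (3.57%) in 5C-Oct4GFP+ (primed), against 20.8% and 6.73% of all genes. The median difference was 1.65. Of the 28, 8 entered only through 5C-Oct4GFP-. Ly6a (Sca-1) was at 846 TPM against 18.9 TPM, a ratio of 44.7 (36.4 to 55.4), and its neighbour in the same family, Ly6c1, at 169 against 2.50 TPM. These are close paralogs, and reads could have been divided between them. Gbp2, an interferon-induced GTPase, was at 8.61 against 22.7 TPM, and Irf1 (29.5 and 45.5 TPM) and Psmb10 (21.3 and 37.9 TPM) were within 2-fold.

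The sequence GAAANNGAAA, the core that interferon-stimulated factors bind, was sought on both strands in the 250 bases before the RefSeq start site (GRCm38.p6). It was present for 8 of the 19 higher genes with a promoter entry (42.1%) and in 978 of 32851 promoters (2.98%). A gene counted when any of its promoters matched, whereas the latter share is per promoter, so the shares are in unlike units. Listed genes that were not higher in 5C-Oct4GFP- were not searched. The 2 motifs overlapped each other in 18 promoters. A match is a description of letters and not a shown site. For 7 of the 8, whose match lies outside annotated exons, 30 bases around the match nearest the start site are printed below on the gene's strand, so that the shared letters can be compared, with matches in capitals (TTTC marks the same sequence read from the other strand).
Bst2: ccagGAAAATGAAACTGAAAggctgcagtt
Oas1a: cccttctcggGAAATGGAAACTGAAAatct
Isg15: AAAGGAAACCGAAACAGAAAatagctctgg
Gbp3: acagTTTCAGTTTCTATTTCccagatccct
B2m: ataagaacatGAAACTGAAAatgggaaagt
Stat2: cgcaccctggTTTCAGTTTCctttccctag
Ifitm2: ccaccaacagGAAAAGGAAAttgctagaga
They lie at chr8:71537577-71537606 (Bst2, minus strand), chr5:120907526-120907555 (Oas1a, minus), chr4:156200865-156200894 (Isg15, minus), chr3:142559995-142560024 (Gbp3, plus), chr2:122147538-122147567 (B2m, plus), chr10:128270266-128270295 (Stat2, plus) and chr7:140955988-140956017 (Ifitm2, minus). In Bst2, Oas1a, Isg15 and Gbp3 matches overlap, so that 3 or more copies of the half-site follow each other. These genes, named for their sequence and not by the rule for named genes, had the following levels. Bst2, tetherin, was at 286 TPM in 5C-Oct4GFP- against 23.2 TPM in 5C-Oct4GFP+ (primed), and Oas1a, an oligoadenylate synthetase, at 28.9 against 1.96 TPM. Isg15, a ubiquitin-like modifier, was at 15.8 against 3.49 TPM, B2m, the light chain of class I molecules, at 310 against 100 TPM, and Ifitm2, a membrane protein, at 1399 against 582 TPM. Gbp3 was at 7.16 against 1.37 TPM and Stat2, a subunit of the factor itself, at 23.3 against 7.24 TPM. In R1 ESCs-primed Bst2 was at 180 TPM, so that its low level was not shared by the 2 primed libraries.

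Of 39 Hox genes, which set position along the body axis, 22 reached 5 TPM in 5C-Oct4GFP- and none in 5C-Oct4GFP+ (primed). These 22 entered only through the library in which they are high, so their common direction (median difference 3.01) was fixed by the filter. Hoxa9 was at 38.6 against 1.05 TPM and Hoxa7 at 17.3 TPM against no read, at least 33.6-fold. The mean log2(TPM + 1) of the 22 was 3.53 in 5C-Oct4GFP-, 2.80 in mES-Oct4GFP-, 1.43 in R1 ESCs-primed and 0.40 in 5C-Oct4GFP+ (primed). The fibroblast-marker sum was 281 TPM in 5C-Oct4GFP-, 596 TPM in mES-Oct4GFP-, 236 TPM in R1 ESCs-primed and 81.3 TPM in 5C-Oct4GFP+ (primed). The part of fibroblasts in the Hox levels was not tested. Of 17 neural genes that entered, 11 (64.7%) were higher in 5C-Oct4GFP- and 2 (11.8%) in 5C-Oct4GFP+ (primed), against 20.8% and 6.73% of all genes. Among them were Zic1 (17.7 against 0.890 TPM) and, on the other side, Hesx1, a factor of the anterior epiblast (0.22 against 19.8 TPM), and Rax (0.590 against 6.10 TPM). Of the 17, 7 entered only through 5C-Oct4GFP- and 3 only through 5C-Oct4GFP+ (primed). Between mES-Oct4GFP- and R1 ESCs-primed the neural list had a median difference of -0.02, with 3 genes 2-fold or more higher on each side. Few lineage genes of other kinds entered, and most did so through 1 library. Of 20 muscle genes 7 did, with Tnnt2 at 19.3 against 0.0500 TPM, and of 20 macrophage and blood genes 3 did, with Laptm5 at 37.9 against 1.13 TPM and Cd14 at 18.9 against 0.420 TPM. Of 22 germline genes 2 entered, with Piwil2 at 14.1 against 0.230 TPM. Trophoblast genes (11) were 6 and 3, endothelial genes (5) 3 and 2, and primitive endoderm genes (10) 3 and 3, higher in 5C-Oct4GFP- and 5C-Oct4GFP+ (primed), respectively.

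Basement membrane genes and inflammatory genes also leaned to 5C-Oct4GFP-. Of 14 basement membrane and epiblast matrix genes 6 were at least 2-fold higher there and none in 5C-Oct4GFP+ (primed), including Itgb4, an integrin of hemidesmosomes (159 against 3.39 TPM), and Lama1, a laminin chain (64.6 against 1.09 TPM). Lamc1 (249 and 135 TPM) and Itgb1 (299 and 195 TPM) were within 2-fold. Of 17 inflammatory cytokines and proteases 10 were higher in 5C-Oct4GFP- and 4 in 5C-Oct4GFP+ (primed). Of these 17, 8 entered only through 5C-Oct4GFP- and 2 only through 5C-Oct4GFP+ (primed). Saa3, an acute-phase protein, was at 58.9 against 0.350 TPM, and Lcn2, lipocalin, at 34.6 against 0.22 TPM. Spp1, osteopontin, was at 48.2 against 717 TPM and Mmp3, stromelysin, at 2.30 against 32.9 TPM, both higher in the primed cells. Spp1 was at 661 to 1840 TPM in the other pluripotent libraries and 59.9 TPM in mES-Oct4GFP-, so that both Oct4GFP- libraries were low.

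Cell cycle genes showed a difference in regulators but little in the replication machinery. The list of cell cycle brakes and D cyclins also held other regulators, such as Myc, Mycn and Ccnb1. Of its 25 genes, 12 were 2-fold or more higher in 5C-Oct4GFP- and 3 in 5C-Oct4GFP+ (primed), with a median difference of 0.81. Myc, with which retroviral reads are counted, is one of the 12. Gadd45g, a stress-induced growth inhibitor, was at 216 against 7.45 TPM. Mycn was at 19.3 against 75.6 TPM and Ccnb1, cyclin B1, at 184 against 446 TPM. Trp53 (265 and 333 TPM) and Ccng1 (164 and 153 TPM) were within 2-fold. Of 34 DNA replication genes, 33 were within 2-fold and 1, Mcm10 (49.0 against 108 TPM), was higher in the primed cells, with a median difference of -0.26. Pcna was at 486 and 585 TPM and Mcm7 at 298 and 459 TPM.

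Of 38 chromatin regulators, 30 were within 2-fold (78.9%, against 72.5% of all genes), 6 were higher in 5C-Oct4GFP- (15.8%) and 2 in 5C-Oct4GFP+ (primed) (5.26%), shares near those of all genes. Tet2, which oxidises methylcytosine, was at 15.5 against 1.59 TPM, and Cbx7, the Polycomb subunit of ESCs, at 23.8 against 73.5 TPM. Hdac1 (194 and 316 TPM) and Hdac2 (299 and 242 TPM) were within 2-fold. The study followed Bmi1, Ctcf, Ezh2, Kdm2b and Wdr5 as epigenetic factors, named here for that reason and not by the rule. Bmi1, a Polycomb protein, was at 55.2 against 11.6 TPM, a ratio of 4.76 (3.90 to 5.84). Ezh2 (153 and 149 TPM), Ctcf (111 and 121 TPM), Kdm2b (53.8 and 69.7 TPM) and Wdr5 (203 and 143 TPM) lay within 2-fold. Of 15 splicing regulators 4 (26.7%) were higher in 5C-Oct4GFP- and 2 (13.3%) in 5C-Oct4GFP+ (primed), against 20.8% and 6.73% of all genes. Mbnl1, a muscleblind protein, was at 61.6 against 7.64 TPM, Mbnl2 at 42.2 against 9.07 TPM, and Rbm47 at 1.98 against 13.5 TPM. Ptbp1 was at 591 and 732 TPM.

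Of 27 imprinted genes, 6 (22.2%) were higher in 5C-Oct4GFP- and 8 (29.6%) in 5C-Oct4GFP+ (primed), against 20.8% and 6.73% of all genes, with a median difference of 0.04. Nnat was at 223 against 27.2 TPM and Magel2 at 2.14 against 14.8 TPM, while Gnas (1142 and 1108 TPM) and Rian (1061 and 1000.4 TPM) were close. Xist, the RNA that silences an X chromosome, was at 114 against 5.36 TPM, a ratio of 21.2 (18.6 to 24.3), and at 258 TPM in mES-Oct4GFP-. The Y-linked Eif2s3y, chosen after its value was seen, was at 48.0 and 63.3 TPM, so that both libraries held RNA of male cells. Whether embryos of both sexes gave the starting fibroblasts was not tested.

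Metabolic lists differed in how many of their members were 2-fold apart. Respiratory chain genes lay within 2-fold for 32 of 34 members (median -0.17), among them Atp5b (1567 and 2113 TPM), with Cycs at 27.7 against 12.1 TPM and Cox7a1 at 7.26 against 18.6 TPM as the exceptions. Glycolysis genes had a median difference of 0.01, with members going both ways, 6 of 28 (21.4%) at least 2-fold higher in 5C-Oct4GFP- and 5 (17.9%) in 5C-Oct4GFP+ (primed). The shares over all genes were 20.8% and 6.73%. The lactate dehydrogenase Ldha was at 1127 against 3279 TPM, 2.91-fold higher in the primed cells (2.84 to 2.99), and the enolase Eno1 at 945 against 2151 TPM. Aldoc, the aldolase of brain, was at 247 against 26.8 TPM and Fbp2, a phosphatase of gluconeogenesis, at 5.80 TPM against no read. Pkm was at 2103 and 3518 TPM. Cholesterol synthesis genes lay within 2-fold for 24 of 25 members, among them Fdps (464 and 605 TPM) and Hmgcs1 (426 and 468 TPM). Of 30 genes of serine, glycine and one-carbon metabolism, 2 were higher in 5C-Oct4GFP- and 5 in 5C-Oct4GFP+ (primed), with the cystine transporter Slc7a11 at 23.2 against 2.68 TPM and the stress genes Chac1 (5.99 against 19.3 TPM) and Trib3 (13.3 against 35.6 TPM). The 3 ribosomal protein genes with a row, Rplp0 and Rplp1 among them, were within 2-fold.

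The same difference was taken between mES-Oct4GFP- and R1 ESCs-primed, a pair that shares no library with the first and whose cells also differ in cell line and medium. Among the same 12073 genes, 2537 (21.0%) were at least 2-fold higher in mES-Oct4GFP- and 1395 (11.6%) at least 2-fold higher in R1 ESCs-primed. Of the 2511 genes higher in 5C-Oct4GFP-, 1652 were in the former set, which is 65.8% of the 2511 and 65.1% of the 2537. Of the 812 genes higher in 5C-Oct4GFP+ (primed), 454 were in the latter set, which is 55.9% of the 812 and 32.5% of the 1395. Counting any size of difference, 90.2% of the 2511 genes were higher in mES-Oct4GFP- (55.1% of all genes were) and 84.7% of the 812 were higher in R1 ESCs-primed (44.8% of all genes were). Over all genes in the files, the squared correlation of log2(TPM + 1) was 0.883 between 5C-Oct4GFP- and 5C-Oct4GFP+ (primed), 0.932 between 5C-Oct4GFP- and mES-Oct4GFP-, and 0.975 between the 2 primed libraries.

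**Figure D4:**
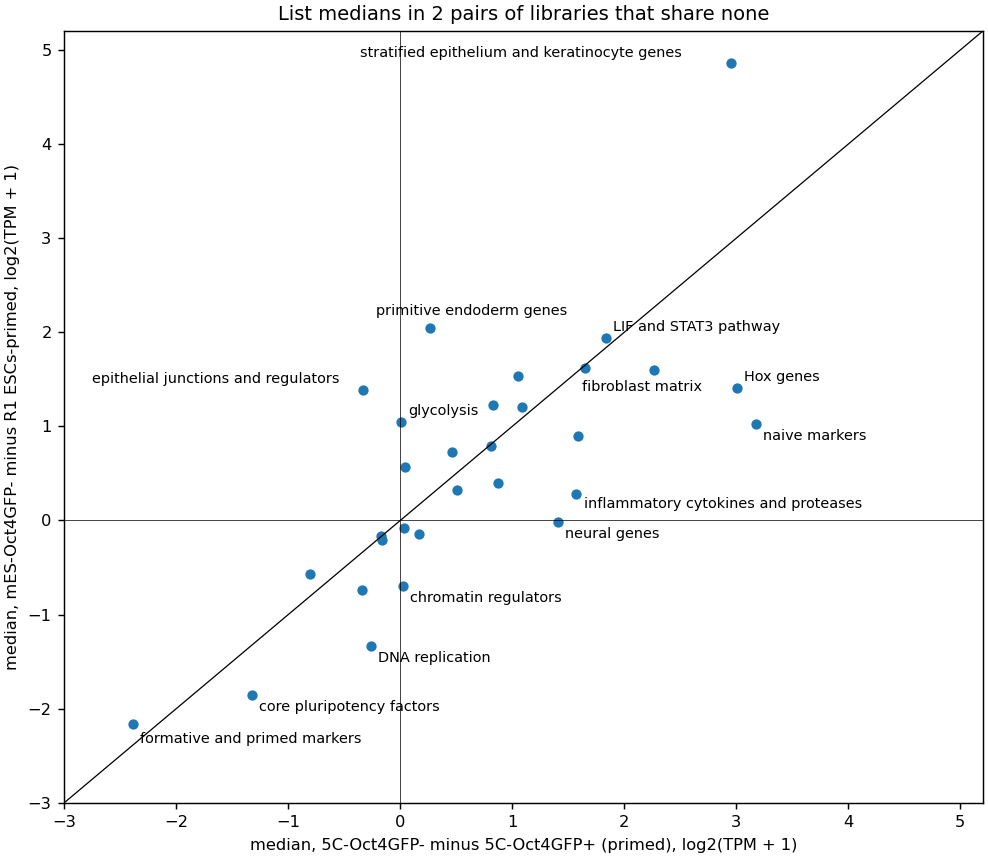
Median difference of each gene list with at least 10 members that entered, in 5C-Oct4GFP- minus 5C-Oct4GFP+ (primed) (x axis) and in mES-Oct4GFP- minus R1 ESCs-primed (y axis), both in log2(TPM + 1); the diagonal marks equal medians. Formative and primed markers lie at the lower left in both pairs, stratified epithelium genes at the upper right, and epithelial junctions at -0.33 and 1.38.

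Gene groups differed in how far the second pair resembled the first. Formative and primed markers had medians of -2.39 and -2.17, with 25 of 33 at least 2-fold on the side of the primed cells in each pair. The LIF and STAT3 list (1.83 and 1.94) and the interferon list (1.65 and 1.62) were also similar. Fibroblast matrix genes had medians of 2.27 and 1.6, and in the second pair 21 of 37 were higher in mES-Oct4GFP- and 5 in R1 ESCs-primed. Naive markers had medians of 3.18 and 1.03, with 8 of 16 higher in mES-Oct4GFP- and 3 in R1 ESCs-primed. All genes entered by their levels in the first pair, and 13 of these 16 did so only through 5C-Oct4GFP-. The filter thus favoured a high naive median in the first pair and not in the second. Epithelial junction genes had medians of -0.33 and 1.38, with 22 of 39 higher in mES-Oct4GFP- and none in R1 ESCs-primed. DNA replication genes had medians of -0.26 and -1.33, and 25 of 34 were at least 2-fold higher in R1 ESCs-primed, against 1 of 34 in the first pair. Glycolysis genes had medians of 0.01 and 1.05, with 14 of 28 higher in mES-Oct4GFP-. These differences between the pairs were not tested.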

How the data were processed

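RNA was measured in 7 libraries, 1 per condition, of mouse cells. Per the labels, reads were aligned with Bowtie and quantified with RSEM on mm10 (versions not given in the sources used here). The authors deposited, for 29267 Ensembl genes, expected counts (estimated counts, not normalized), TPM and FPKM from TruSeq libraries sequenced on a MiSeq. The gene tables matched 28756 identifiers to symbols. Positions came from GENCODE M21 and promoters from RefSeq, both on GRCm38, the same build. Differences of log2(TPM + 1) were computed for genes that reached 5 TPM in one library or both, and 2-fold was the limit. Exact (Clopper-Pearson) 95% intervals of ratios came from expected counts rounded to whole numbers. A gene without reads was set against 3 counts where a fold is given, and doing so throughout left every list median the same to the digits printed. No test was possible with 1 library per condition. Columns of length and effective length were used only for scaling. The comparison, 35 gene lists and rules were chosen with earlier results of these data known. Of the lists, 2 are markers of the study, read only in part. List genes without a row in the files, 44 in all and mostly ribosomal proteins, were not analysed here. Named genes were the 15 with the largest differences on each side among genes with a name (predicted genes were left out), in each list the 2 furthest on each side and the 2 most abundant within 2-fold, fixed markers of each state, and mesenchymal genes of at least 50 TPM in both libraries within 2-fold. A few of these genes are not reported here. In all, 6 alternatives were tried, and the calculation was checked on simulated data. Calculations used pandas 2.3.3 with numpy 2.4.6 and scipy 1.17.1 under Python 3.11.15, and plots matplotlib 3.10.9.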

Additional observations from a re-analysis of the deposited data

Results flagged for a closer look

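Of the 12073 genes, 98 were at least 2-fold apart in opposite directions in the pair 5C-Oct4GFP- and 5C-Oct4GFP+ (primed) and the pair mES-Oct4GFP- and R1 ESCs-primed, 65 of them higher in 5C-Oct4GFP-. Of the 98, 8 are in the set of named genes, and the difference between the pairs was not tested for any of them. Dppa5a differed by 5.90 in the first pair and -4.16 in the second (log2 of TPM + 1, Oct4GFP- minus primed), with 143 TPM in R1 ESCs-primed and 7.06 TPM in mES-Oct4GFP-. Nnat differed by 2.99 and -1.52, with 318 TPM in R1 ESCs-primed. Nkx1-2 differed by 1.65 and -2.46. In the other direction, Krt7, a keratin of simple epithelia, differed by -1.45 and 4.99, with 177 TPM in mES-Oct4GFP- and 4.68 TPM in 5C-Oct4GFP-. Hesx1 differed by -4.09 and 1.30, Rax by -2.16 and 1.65, Tnnt1, a slow muscle troponin, by -2.07 and 1.34, and Igfbp3 by -2.02 and 1.46.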

How the results depend on the processing

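The 3 counts of genes stayed within 1.5 times their value under all 6 alternatives: a pseudocount of 0.1, a minimum of 1 or 10 TPM, FPKM in place of TPM, median-ratio scaling of the libraries, and the deeper library thinned to the depth of the other. The share of the genes higher in 5C-Oct4GFP- that were also at least 2-fold higher in mES-Oct4GFP- than in R1 ESCs-primed moved to 68.5% with a pseudocount of 0.1, 58.0% at 1 TPM, 68.5% at 10 TPM and 61.0% with FPKM. The share of the genes higher in 5C-Oct4GFP+ (primed) on the side of R1 ESCs-primed moved to 47.7% at 1 TPM. List medians stayed within their 95% order-statistic range in 201 of 210 comparisons. The median of the Hox genes moved to 5.01 with a pseudocount of 0.1, 2.62 at 1 TPM and 2.33 with FPKM, and that of macrophage and blood genes to 4.95 with a pseudocount of 0.1. The median of the respiratory chain moved to -0.26 and that of the ribosomal proteins to -0.16 with FPKM, and to -0.30 and -0.20 with median-ratio scaling. The median of the endothelial genes turned from 1.07 to -1.90 at 10 TPM, where fewer genes entered. The medians of cholesterol synthesis, chromatin regulators, glycolysis, imprinted genes, primitive endoderm and splicing regulators, all under 0.3 in size, changed sign under at least 1 alternative. Among 199 named genes, 1101 of 1194 values stayed within counting error or 0.1 of the main value and none that was 2-fold apart changed direction. No paired analysis was possible because each condition has 1 library, and for the same reason no library could be left out. Depth limits genes with few reads, whose ratios have wide intervals.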
